A study of Mus musculus with 2 samples.

Results

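The Msmb-high secretory luminal cells are the 437 of 3121 luminal cells of 1 barcode set (set 1) of mouse prostate that scored highest for Msmb, Wfdc3, Apof and Pcp4. Luminal cells were gated as cells with RNA of the epithelial genes Epcam and Krt8, little or no RNA of the basal keratin Krt5 (a log value under 1) and none of the leukocyte gene Ptprc. The score was the mean of the natural log values of the 4 genes, and the members were the top 14%. They made up 6.90% of the 6332 cells of set 1, and the whole series held 15742 cells. The other 2684 gated cells of set 1 served for comparison and are called the remaining gated cells. Because measured values chose the members, every difference from those cells is a description, and none was tested.

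Luminal cells line the prostatic glands and release the proteins of the prostatic fluid, many of them under the control of androgens. Such proteins are made at the endoplasmic reticulum (ER), folded there by chaperones, passed through the Golgi and stored in granules. Msmb encodes beta-microseminoprotein, a major protein of the prostatic fluid. Wfdc3 belongs to a family of small secreted proteins that holds many protease inhibitors. Apof encodes apolipoprotein F, which acts in lipid transfer between lipoproteins, Pcp4 a small calmodulin-binding protein, and Abo the glycosyltransferase of the ABO blood group antigens.

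In mm10 coordinates (GRCm38.p6, RefSeq), Msmb lies at chr14:32142023-32158327, Apof at chr10:128268699-128271250, Abo at chr2:26842496-26864995, Pcp4 at chr16:96467606-96525793 and Wfdc3 at chr2:164731226-164745994. Pbsn, the androgen-dependent secretory gene probasin, lies at chrX:77837898-77853500. RefSeq promoter windows of 300 bases (250 before and 50 after a start site) matched Wfdc3 and Pcp4 of the 5 markers, as well as Pbsn. Their 250 upstream bases are shown as the sequence before annotated start sites of 2 genes that chose the cells and of the secretory gene that divided them. Capitals mark AGAACA, searched on either strand. It is the first part of the androgen response element, in which 3 free letters and TGTTCT follow. The windows are those of Wfdc3 (chr2:164743268-164743517, minus strand), Pcp4 (chr16:96467356-96467605, plus strand) and Pbsn (chrX:77853501-77853750, minus strand). The start site used for Wfdc3 is an inner one, and its window lies inside the annotated gene.
Wfdc3: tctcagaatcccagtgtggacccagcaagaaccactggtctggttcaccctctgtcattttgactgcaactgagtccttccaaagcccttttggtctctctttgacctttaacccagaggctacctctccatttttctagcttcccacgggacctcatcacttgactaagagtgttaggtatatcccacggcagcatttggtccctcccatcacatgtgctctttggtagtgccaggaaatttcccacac
Pcp4: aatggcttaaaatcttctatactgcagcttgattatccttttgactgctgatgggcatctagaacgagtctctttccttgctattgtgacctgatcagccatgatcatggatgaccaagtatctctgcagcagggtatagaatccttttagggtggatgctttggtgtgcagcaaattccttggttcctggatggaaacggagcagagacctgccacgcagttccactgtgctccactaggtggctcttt
Pbsn: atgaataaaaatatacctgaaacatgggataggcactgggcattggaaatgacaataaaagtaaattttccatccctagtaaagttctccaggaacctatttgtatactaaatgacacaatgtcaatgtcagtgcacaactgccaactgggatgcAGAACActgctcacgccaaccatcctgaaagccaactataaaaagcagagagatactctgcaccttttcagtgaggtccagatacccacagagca
The Pbsn window held 1 AGAACA, beginning at position -95 from the start, and the Pcp4 window held 0. The 300-base Wfdc3 window held 2, neither of them wholly within the upstream bases shown. AGAACA occurred in 19.0% of all 32851 windows and the full element in 3 of them. Of the 12 genes highest in the Msmb-high cells, 9 had a window. Of these 9 genes, 5 had AGAACA in a window and 0 had the full element. The letters are a description of the sequence, not of binding.

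The series holds 2 libraries of prostate tissue from R26 mTmG/hAR:Osr1 Cre/+ mice on a mixed C57BL/6 and 129S1/SvImJ background, made with the 10x Chromium 3' kit, version 2. One was taken from prostatic intraepithelial neoplasia (PIN) of 6-month-old mice and the other from prostatic adenocarcinoma (PCa) of 12-month-old mice. In both, Cre driven by Osr1 switches on the transgene hARtg and membrane-bound green fluorescent protein (mGFP), so mGFP marks the Osr1 lineage and not the transgene alone. Tissue was dissociated with collagenase and TrypLE. The labels do not say which barcode ending belongs to which tissue, so cells are given as set 1 (6332 cells, median 17235 unique molecular identifiers, UMIs, per cell) and set 2 (9410 cells, median 14824.5). Each group was 1 library without replicates. Intervals are 95% and cover counting error only, since cells of 1 library are not replicates of a condition. Sets 1 and 2 shared 67 barcodes, of which 8 belonged to Msmb-high cells.

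The score spread widely, and the limit at the top 14% fell on its slope and not in a gap. The lowest member scored 1.91 and the highest other cell 1.89, with 20 members and 34 other cells within 0.1 of the limit. Members had a median of 3.08 and a maximum of 4.31, and the remaining gated cells a median of 0.353. The 50 members next to the limit had 15595 CPM of Msmb (a gene's UMIs relative to all UMIs of the cells, on 1 scale for every group), and the 50 other cells next to it had 13266 CPM. In the same cells Wfdc3 stood at 667 and 543 CPM and Pbsn at 2985 and 2669 CPM. Cells on either side of the limit were thus close in both. All 4 genes were detected together in 286 members (65.4%) and in 44 of the remaining gated cells (1.64%). A further 35 cells of set 1 passed the score limit but failed the gate, 17 of them through Ptprc and 16 through Krt5.

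**Figure D1:**
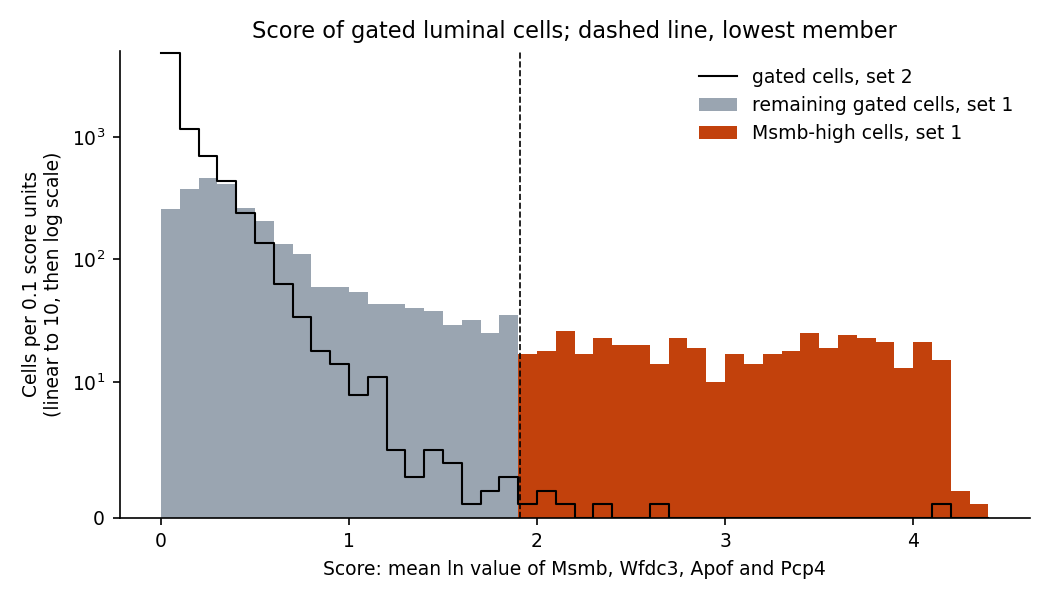
Number of gated luminal cells (linear to 10, then log scale) by score, the mean natural log value of Msmb, Wfdc3, Apof and Pcp4, in steps of 0.1. Bars stack the 2684 remaining gated cells (grey) and the 437 Msmb-high cells (orange) of set 1, the line gives the gated cells of set 2, and the dashed line is the lowest member at 1.91.

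Msmb-high cells were RNA-rich. They held a median of 38785 UMIs (3963 to 85700) and 5432 detected genes, against 25889.5 UMIs and 4725 genes in the remaining gated cells. The median mitochondrial share was 4.99% against 3.79%. Doublet scores over 0.25 were found in 6 members (1.37%) and 27 remaining gated cells (1.01%). The part of depth in the results was not tested beyond the thinned shares and the thinned alternative given with the limits.

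Of the genes that set the score, Msmb had a median of 1285 UMIs per member, with 6 in the lowest and 7388 in the highest cell. The remaining gated cells had a median of 2 Msmb UMIs and reached 3057 in 1 cell, so the 2 sides overlapped. Summed over cells, Msmb stood at 39680 CPM in members and 1082 CPM in the remaining gated cells. Wfdc3 stood at 4083 and 79.4 CPM, Apof at 1376 and 116 CPM and Pcp4 at 194 and 2.61 CPM. Abo, which was not in the score, stood at 391 and 56.2 CPM (log2 ratio 2.80, interval 2.74 to 2.85) and was detected in 97.5% and 33.7% of cells. Per cell, 5% of the members lay at or below 5370 CPM of Msmb and 5% at or above 98438 CPM, with a median of 34337 CPM. Pcp4 had a UMI in 66.6% of members and a median of 130 CPM, whereas each of the other score genes had a UMI in 97.9% or more.

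Low levels of these RNAs occurred in other cells too. After thinning every cell to 3000 UMIs, an Msmb UMI was found in 100% of members and 36.9% of the remaining gated cells. Leukocytes, defined by Ptprc and not expected to make Msmb, gave 37.5%, so the share in the remaining gated cells did not exceed that of the background. The mean number of Msmb UMIs per thinned cell did, at 2.89 in the remaining gated cells and 0.616 in leukocytes. H2-Q10 gave shares of 89.5%, 10.1% and 12.5% in the same order, with means of 5.56, 0.269 and 0.1399 UMIs. For both genes, share and mean thus ordered the remaining gated cells and the leukocytes differently, and no order is read from the shares. Abo gave 60.2%, 10.8% and 0.560%, and Apof 91.5%, 21.9% and 2.24%, so both were above the background in the remaining gated cells as well. Thinning left out 0 members, 30 remaining gated cells and 170 leukocytes, whose median depth was 3803 UMIs. Without thinning, 53.3% of leukocytes had an Msmb UMI. In CPM, Msmb reached 874 in basal cells of set 1, 173 in leukocytes of set 1 and 74.3 in gated cells of set 2.

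**Figure D2:**
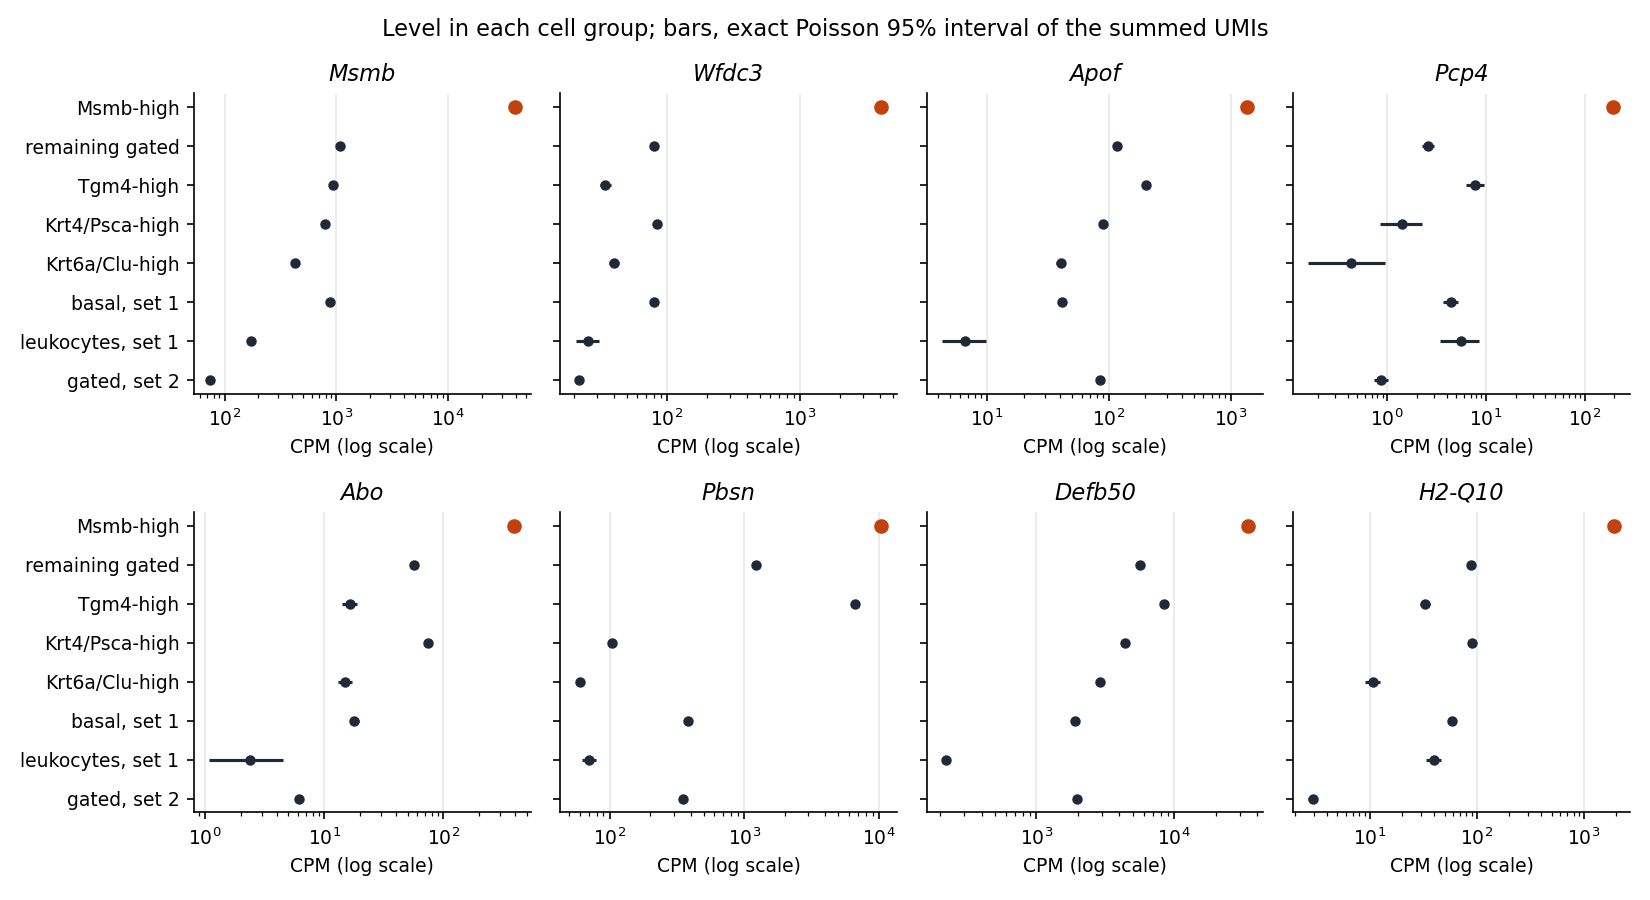
Level of 8 genes (CPM, log scale) in the Msmb-high cells (orange) and in 7 other cell groups (black), with exact Poisson 95% intervals that are mostly narrower than the points. Msmb was 39680 CPM in Msmb-high cells and at most 1082 CPM in the other groups shown, while Pbsn was also 6626 CPM in Tgm4-high cells.

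Across the transcriptome, 9317 genes reached 5 CPM on either side. A gene was called when log2((CPM + 10)/(CPM + 10)) was at least 1 in either direction, the 10 CPM serving to hold back scarce genes. By this rule 232 genes (2.49%) were at least 2-fold higher and 426 (4.57%) at least 2-fold lower in Msmb-high cells, 658 (7.06%) in all. The median over all genes tested was -0.13. When genes above 1% of UMIs were left out of the scaling, the split became 302 higher and 351 lower and the median -0.05. Ratios in the text are log2 of the plain CPM ratio unless they are medians of a list.

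Several secreted products were among the 12 genes with the highest ratios, the rule genes left out. Defb50, a beta-defensin, stood at 34245 CPM in members and 5646 CPM in the remaining gated cells (log2 ratio 2.60). Pbsn stood at 10451 and 1229 CPM (3.09), and its per-cell values ran from 0 CPM at the lower 5% to 34438 CPM at the upper 5% of members. H2-Q10, a class I histocompatibility gene whose product is secreted, stood at 1901 and 87.3 CPM (4.45) and was detected in 94.1% and 29.8% of cells. H2-Q10 was thus higher in level and found in a larger share of members. Smgc, a salivary mucin-like gene, stood at 152 and 2.98 CPM (5.67), in 50.6% and 3.28% of cells. Gpx3, the extracellular glutathione peroxidase, stood at 428 and 55.5 CPM (2.95). Upb1, an enzyme of pyrimidine breakdown and no secreted product, stood at 122 and 11.8 CPM (3.38).

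For 3 of the 12 highest genes, a few cells held a large part of the UMIs. Spink1, a secreted inhibitor of trypsin, stood at 1977 CPM in members and 82.8 CPM in the remaining gated cells (4.58). It was detected in 27.5% of members, and 5 cells held 34.3% of its UMIs in members. Sbp, the spermine-binding protein of the prostate, stood at 5801 and 885 CPM (2.71), with 42.6% of its UMIs in members in 5 cells. Among the remaining gated cells, 5 cells held 78.8% of the Sbp UMIs, and the per-cell medians were 26.4 CPM in members and 0 CPM in the others. The globin gene Hbb-bs stood at 203 and 20.7 CPM, but 5 cells held 99.3% of its UMIs in members, so its ratio described those cells. Abo, Acrbp (95.8 against 7.52 CPM) and Snhg11 (111 against 10.0 CPM) completed the 12 highest. Acrbp and Snhg11 were detected in 61.6% and 78.5% of members. H2-Q10, Sbp, Hbb-bs and the C1rb and C1s2 genes named below have close copies in the genome, and reads may have been split between copies in the counting.

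**Figure D3:**
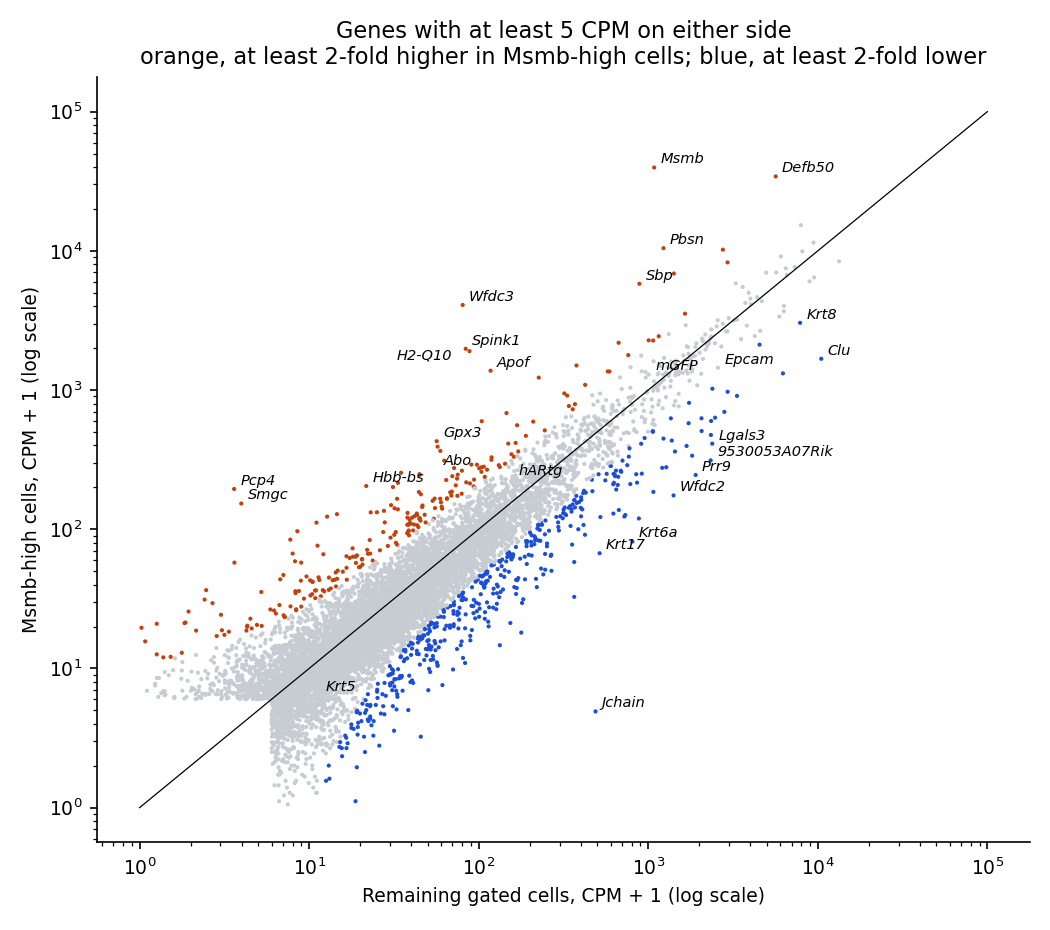
Level of each tested gene in Msmb-high cells (vertical) and remaining gated cells (horizontal), both as CPM + 1 on log scales, with the line of equal levels. Orange points are the 232 genes at least 2-fold higher and blue points the 426 at least 2-fold lower, and most genes named by the rule are labelled.

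A list of prostate secretory genes followed the same direction in part. Its counts and those of all lists below stand beside 2.49% of all tested genes called higher and 4.57% called lower. Of 24 genes, 15 were tested, 9 of them called higher and 3 lower, with a median of 1.68 beside -0.13 for all genes. Azgp1, a zinc-binding secreted glycoprotein, stood at 1227 and 225 CPM (2.45), and Mme, the membrane peptidase neprilysin, at 558 and 167 CPM (1.74). The 3 lower genes were Tgm4, the prostate transglutaminase, at 507 and 2063 CPM (-2.03), 9530053A07Rik at 312 and 2332 CPM (-2.90), and Lcn2, the iron-carrier-binding lipocalin, at 223 and 557 CPM (-1.32). Members thus did not have more of every secretory product. Of 37 genes for protease inhibitors, 18 were tested, with 5 higher and 5 lower. The higher ones were Spink1, Spink5, Spink8 and Spink11 besides Wfdc3, which chose the members. Spink5 had a UMI in 149 members and a per-cell median of 0 CPM on both sides. Its ratio also differed in sign between clusters of members, as given below. Without Wfdc3, 17 genes were tested and the median was 0.07. The lower ones included Wfdc2 at 174 and 1409 CPM (-3.02) and Spint1 at 209 and 620 CPM (-1.57).

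Among genes of the early secretory route, most calls lay on 1 list. All 24 genes on the list of ER chaperones and the unfolded protein response were tested, and 8 were called higher and 0 lower (median 0.67). Derl3, which takes part in the removal of misfolded proteins, stood at 254 and 33.8 CPM (2.91) and was detected in 89.5% and 23.8% of cells. Herpud1, of the same disposal route, stood at 1500 and 376 CPM (2.00). The other 6 were Creld2, Edem1, Sdf2l1, Dnajc3, Pdia6 and the chaperone gene Hsp90b1, with log2 ratios from 1.09 to 1.34. Among 25 tested genes of ER translocation and glycosylation, 2 were higher, namely Sec11c, a subunit of the signal peptidase (945 and 319 CPM, 1.57), and Tram1 (295 and 142 CPM, 1.05). Among 23 tested genes of Golgi transport, 2 were higher, namely the cargo receptor gene Tmed3 (2185 and 668 CPM, 1.71) and Rab3d, of secretory granules (106 and 42.4 CPM, 1.32). The medians of these lists were 0.32 and 0.13. None of either list was called lower, which for so few genes is near the 4.57% of all tested genes and is not read as a result.

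The integrated stress response, which slows translation when the ER is loaded, was uneven. Of 13 genes, all tested, 4 were called higher and 0 lower. Ddit3, a transcription factor of that response, stood at 245 and 43.9 CPM (2.48). Chac1, Atf3 and Phgdh were the other 3. The upstream factor Atf4 stood at 782 and 800 CPM (-0.03), and Ppp1r15a, which reverses the translational block, at 277 and 541 CPM (-0.97). Neither passed the 2-fold limit.

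Among transcription factors of the lineage, 25 of 29 were tested, with 4 higher and 1 lower. Hoxb13, a prostate homeobox gene, stood at 273 and 99.6 CPM (1.45) and was detected in 98.9% and 63.5% of cells. Also higher were Bhlha15 and Spdef. Bhlha15, known from secretory cells with much ER, stood at 23.8 and 5.36 CPM (2.15), and Spdef at 23.1 and 6.07 CPM (1.93). The lower one was Runx1, at 33.5 and 121 CPM (-1.85).

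Known androgen-responsive genes lay on both sides. Of 20 genes, 18 were tested, with 3 higher and 3 lower (median 0.19). The higher ones included Fkbp5, a co-chaperone of steroid receptors (225 and 63.3 CPM, 1.83), and Zbtb16 (42.3 and 13.1 CPM, 1.69). The lower ones were Ndrg1 (26.4 and 121 CPM, -2.20), Pmepa1 (106 and 414 CPM, -1.96) and the kinase gene Sgk1 (433 and 1375 CPM, -1.67).

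Metabolic lists differed in their calls, beside 2.49% of all tested genes higher and 4.57% lower. Sterol and fatty acid synthesis had 5 of 21 tested genes higher and 0 lower (median 0.52). Scd1, a fatty acid desaturase, stood at 290 and 96.6 CPM (1.58), beside Scd2, Insig1, Hmgcs1 and Idi1. Of 21 tested genes of zinc transport and metal binding, 3 were higher and 1 lower. Slc30a10, a metal exporter, stood at 35.5 and 1.47 CPM (4.60) and was detected in 63.6% and 3.32% of cells, while Slc39a8, a metal importer, stood at 25.6 and 126 CPM (-2.30). The metallothionein genes Mt1 and Mt2 had log2 ratios of 1.18 and 1.07. Of 29 genes around the citrate cycle, all tested, only Glul was called (468 and 189 CPM, 1.31), a count near the share of all genes. Of 11 tested polyamine genes 0 were higher and 2 were lower, namely Smox (-1.72) and Sat1 (-1.03), both of polyamine breakdown.

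**Figure D4:**
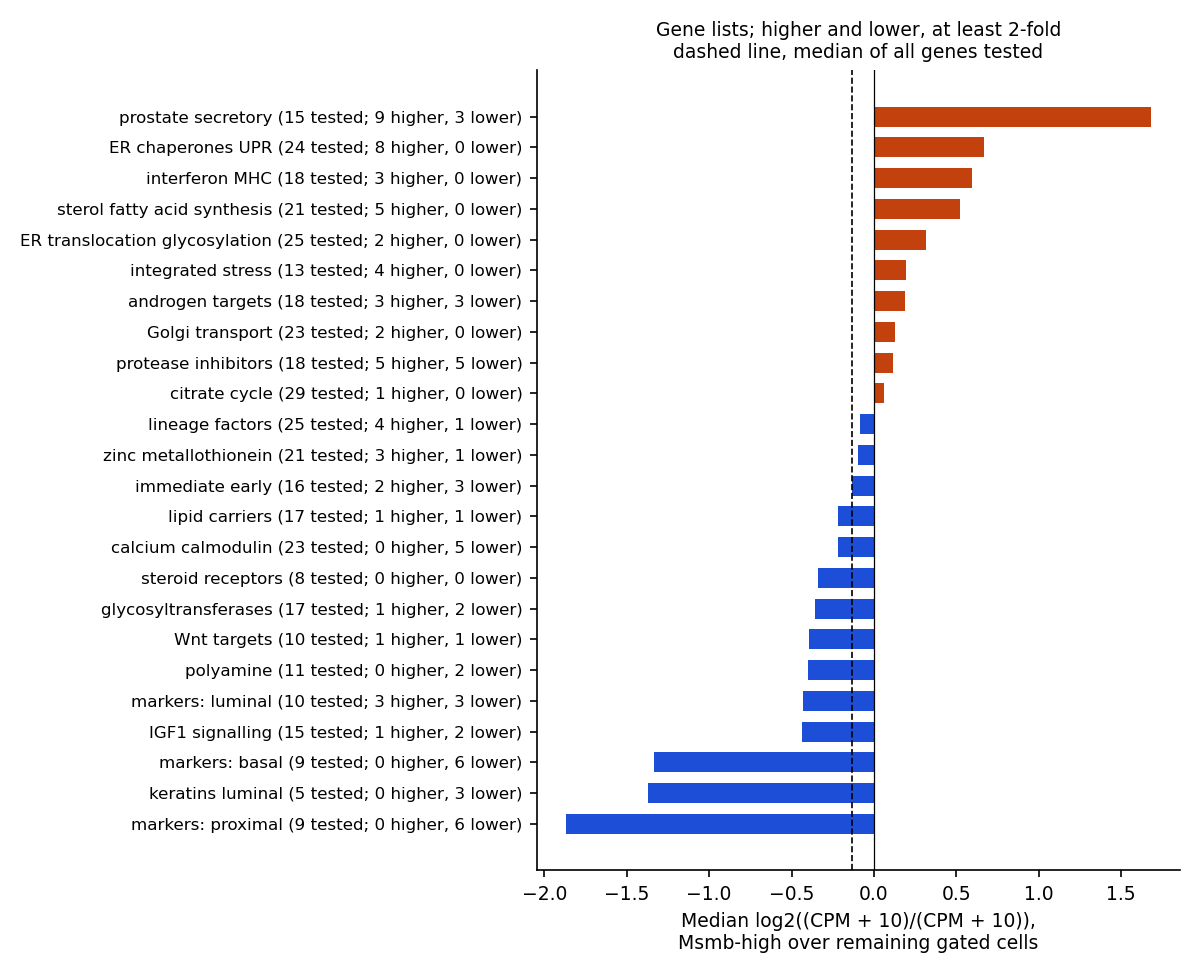
Median log2((CPM + 10)/(CPM + 10)) of Msmb-high over remaining gated cells for each gene list with at least 5 tested genes; labels give the genes tested and the numbers at least 2-fold higher and lower. The dashed line is the median of all tested genes, -0.13, with prostate secretory genes at 1.68 and proximal markers at -1.87 as the 2 ends.

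The remaining lists also stand beside 2.49% of all tested genes called higher and 4.57% called lower. Of 10 tested Wnt targets, Sp5 was higher (34.4 and 4.22 CPM, 3.03) and Cd44, a cell adhesion receptor, lower (57.1 and 365 CPM, -2.67). Of 15 tested genes of IGF1 signalling, Mapk13 was higher (237 and 108 CPM, 1.14) and Igfbp5 and Igfbp7 were lower, and Igf1r stood at 48.3 and 68.9 CPM (-0.51). Among the remaining gated cells, 5 cells held 52.3% of the Igfbp5 UMIs and 5 cells held 16.9% of the Igfbp7 UMIs. Of 18 genes of interferon response and antigen presentation 3 were higher, among them H2-Aa (1359 and 576 CPM) and H2-Ab1 (1358 and 589 CPM). Immediate early genes, which respond within minutes to handling and to signals, had 2 higher (Fos and Atf3) and 3 lower (Dusp1, Ier3 and Fosl1) of 16. Glycosyltransferases had 1 higher (Abo) and 2 lower of 17 tested, calcium and calmodulin genes 0 higher and 5 lower of 23, and lipid carriers 1 lower (Lcn2) of 16 tested besides the score gene Apof.

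Several keratins and genes of proximal and basal cells were lower in Msmb-high cells. Clu, the secreted chaperone clusterin, stood at 1676 CPM in members and 10480 CPM in the remaining gated cells (-2.64), and 5 cells held 21.5% of its UMIs in members. Krt6a and Krt17, keratins of stressed or basal epithelium, stood at 80.5 and 805 CPM (-3.32) and at 66.2 and 516 CPM (-2.96). Krt19 stood at 1317 and 6227 CPM (-2.24), and Krt8, although it was part of the gate, at 3037 and 7860 CPM (-1.37). Lgals3, the lectin galectin 3, stood at 411 and 2384 CPM (-2.54). Jchain, the joining chain of immunoglobulins, stood at 3.91 and 488 CPM (-6.96), yet a UMI of it was found in 61 of the 437 members and in 13.4% of the remaining gated cells, of which 5 cells held 39.9% of its UMIs. The other genes among the 12 lowest were C1rb, Wfdc2, Prr9, 9530053A07Rik, Basp1, Srpx and C1s2.

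Markers were used to check the label. The gate itself required Epcam and Krt8 of the luminal markers and kept Krt5 of the basal markers low, so these 3 check nothing. All 10 luminal markers, Epcam and Krt8 included, had a median above 0 in members. In the remaining gated cells 8 were above 0, the same 2 included. Their summed level per cell was 18656 against 20673 CPM (medians), but 3 were called higher and 3 lower in members (median log2 ratio -0.43). Pbsn, 1 of the 10, stood at 10451 and 1229 CPM over summed cells. Cd24a had per-cell medians of 774 and 2164 CPM and Cdh1 of 193 and 656 CPM. Basal markers summed to 117 and 633 CPM, with 6 of the 8 tested besides Krt5 called lower, and proximal markers to 868 and 6707 CPM, with 6 of 9 tested called lower. Among them Psca stood at 696 and 2810 CPM, with 48.0% of its UMIs in members in 5 cells. Leukocyte markers summed to 3411 and 1649 CPM, nearly all of it Cd74 (5840 and 3283 CPM over summed cells), a gene of antigen presentation, while Tyrobp and Lyz2 were under 1 CPM in members and Ptprc was 0 through the gate. Of fibroblast markers, Dcn stood at 280 and 106 CPM and was detected in 81.7% and 26.4% of cells, whereas Vim stood at 2.35 and 18.3 CPM and Col1a1 was under 1 CPM in members. Smooth muscle, endothelial, neuroendocrine and seminal vesicle markers had a median of 0 in both. Their part in the results was not tested.

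The transgene and its reporter did not separate Msmb-high cells cleanly. These are the features ARQ and EGFP of the table, read as hARtg and mGFP from their names. hARtg stood at 229 CPM in members and 157 CPM in the remaining gated cells (0.55), and mGFP at 1290 and 1006 CPM (0.36). The direction depended on the limit of the score, since with the top 10% the ratios were -0.48 for hARtg and -0.63 for mGFP, and with the top 20% they were 1.08 and 0.91. After thinning to 3000 UMIs, hARtg was found in 28.4% of members (24.2 to 32.9%), 19.0% of the remaining gated cells (17.5 to 20.5%) and 1.87% of leukocytes. For mGFP the shares were 34.1%, 23.1% and 9.14%. Without thinning, hARtg was found in 62.0% and 41.7% of members and remaining gated cells.

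Within the members, the reporter went along with different secretory genes. Of the 437 cells, 136 (31.1%) held 5 or more mGFP UMIs, 154 held 1 to 4 and 147 (33.6%) held 0. Their median depths were 45908.5, 43426.5 and 30666 UMIs, lowest in the cells without mGFP. Between cells with 5 or more and cells with 0 mGFP UMIs, 119 of 8978 tested genes (1.33%) were at least 2-fold higher and 30 (0.334%) at least 2-fold lower with mGFP, mGFP included. Pbsn stood at 3797 CPM in mGFP-bearing members and 16058 CPM in members with 0 mGFP (-2.08). The rule genes, which chose these cells, went the same way within the members. Msmb stood at 28584 and 49918 CPM, Wfdc3 at 2667 and 5602 CPM and Pcp4 at 79.4 and 269 CPM. The remaining gated cells, split alike, had 2159 and 754 CPM of Msmb and 145 and 56.9 CPM of Wfdc3, the reverse order. Their Pcp4 stood at 1.35 and 2.63 CPM. The order of the rule genes in members is therefore not read as one of luminal cells. Higher in mGFP-bearing members were Spink5 at 5921 and 684 CPM, Spink1 at 4275 and 1287 CPM and Psca at 1535 and 114 CPM. hARtg stood at 549 and 56.8 CPM. H2-Aa and H2-Ab1, of antigen presentation, stood at 535 and 1871 CPM and at 474 and 1915 CPM. Some of the shared programme differed by less than 2-fold between the same cells, with Defb50 at 35102 and 36523 CPM, H2-Q10 at 2013 and 1894 CPM and Abo at 430 and 387 CPM. In the remaining gated cells, split alike, Pbsn stood at 471 and 1668 CPM and Spink1 at 243 and 50.5 CPM. The order of Pbsn and Spink1 by mGFP was thus the same there and not particular to the members.

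Cell by cell, Pbsn was above 5000 CPM in 75.5% of the 147 members with 0 mGFP, in 71.4% of the 154 with 1 to 4 UMIs and in 27.2% (19.9 to 35.5%) of the 136 with 5 or more. It was under 500 CPM in 14.3%, 11.7% and 64.0% of them. Spink1 above 1000 CPM was found in 40 members (9.15%), whose median was 110.5 mGFP UMIs. Pbsn above 5000 CPM was found in 258 members (59.0%), whose median was 1 mGFP UMI. Only 5 members had both. Members high in Pbsn and members high in Spink1 were thus mostly different cells.

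**Figure D5:**
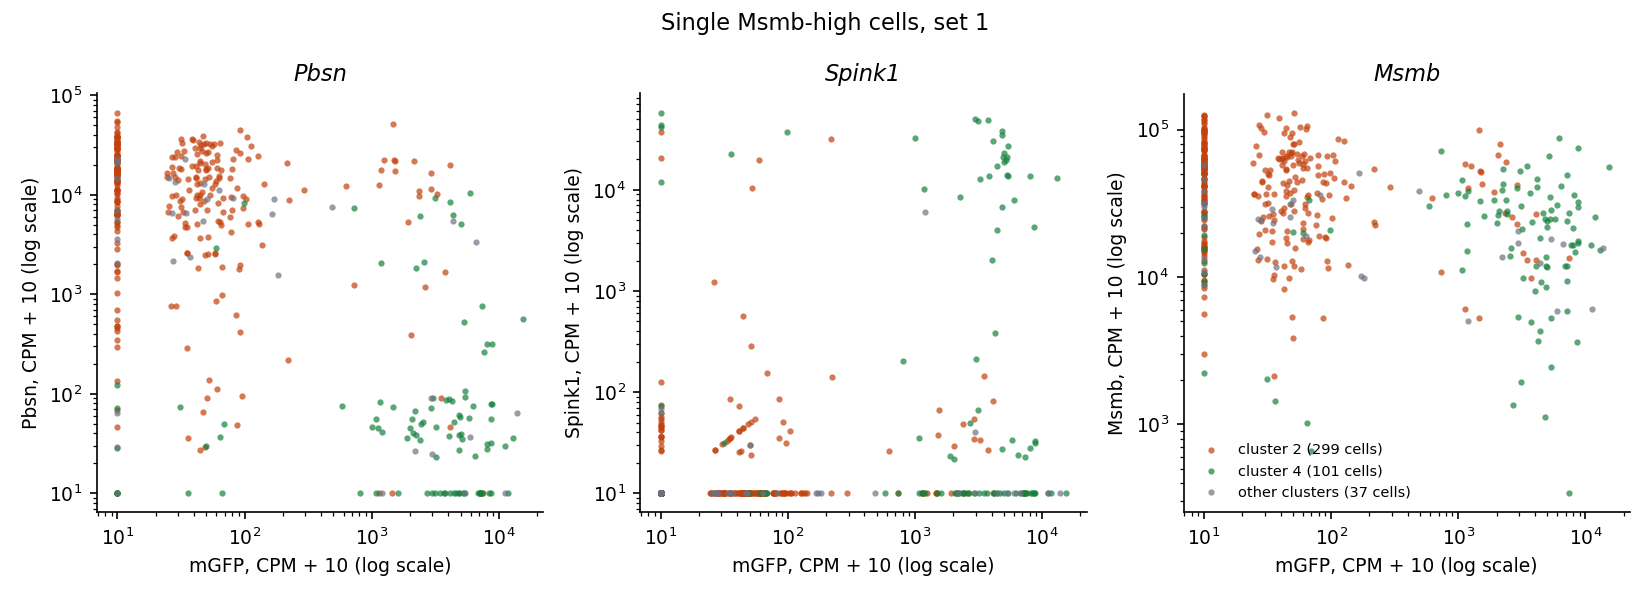
Each point is 1 of the 437 Msmb-high cells, with mGFP (CPM + 10, log scale) on the horizontal axis and Pbsn, Spink1 or Msmb (CPM + 10, log scale) on the vertical axis, coloured by cluster. Pbsn was mostly high at low mGFP (cluster 2, 299 cells) and low at high mGFP (cluster 4, 101 cells), whereas Msmb was high in both.

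Clustering of the gated cells of set 1 without the 4 score genes and Abo put most members in 2 of 11 clusters. Cluster 2, led by Sbpl, Sbp, Pbsn, Smgc and H2-Q10 besides the rule genes, held 299 members (68.4%), which made up 74.2% of its 403 cells. Sbpl was detected in 13.4% of these 299 members. Cluster 4, led by Spink1 and the related Spinkl, Spink11 and Spink5, held 101 members (23.1%), 39.5% of its 256 cells. The other 37 members were spread over other clusters. Members of cluster 4 had 902 CPM of Pbsn against 13586 CPM in all other members, 7078 against 303 CPM of Spink1 and 8894 against 313 CPM of Spink5. They had 3973 against 409 CPM of mGFP, 696 against 75.7 CPM of hARtg and 26.2 against 249 CPM of Pcp4. Members of cluster 2 had 14551 CPM of Pbsn against 2345 CPM in all other members, and 45.0 against 593 CPM of hARtg. Taken alone against the remaining gated cells, members of cluster 4 had a Pbsn ratio of -0.45, below instead of above them, and ratios of -0.43 and -0.54 for H2-Aa and H2-Ab1. Members of cluster 2 alone had a Spink5 ratio of -2.12. These genes helped to define the clusters, so the values are a description.

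The members were also split by their score. In 4 parts of the members from the lowest to the highest score (110, 109, 109 and 109 cells), Msmb stood at 17522, 24285, 43030 and 74947 CPM, an order that the score fixes. Pbsn, which was not in the score, stood at 2636, 3995, 13124 and 22453 CPM, and Derl3 at 125, 173, 295 and 426 CPM. Pbsn and Derl3 were higher in each next part. hARtg stood at 485, 336, 61.2 and 36.3 CPM, mGFP at 2700, 1950, 373 and 143 CPM and Tgm4 at 1271, 587, 165 and 27.3 CPM, each lower in each next part. Spink1, at 2777, 4087, 782 and 117 CPM, was highest in the second part. H2-Q10 stood at 1314, 1841, 2125 and 2309 CPM. Members of cluster 4 had less of the score genes than all other members, with 24892 against 44534 CPM of Msmb and 26.2 against 249 CPM of Pcp4. A split by score thus also splits by cluster, and genes outside the score are no independent check. What the mix of clusters adds to these orders was not tested.

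Msmb-high cells were also set beside 3 other groups of gated cells of set 1, each the top 14% of its own score less the cells shared with the members. These were 421 Tgm4-high, 424 Krt4/Psca-high and 435 Krt6a/Clu-high cells, after removal of 16, 13 and 2 shared cells. The Krt4/Psca-high and Krt6a/Clu-high groups still had 48 cells in common. Tgm4-high cells had 3 in common with the former and 2 with the latter. Against Tgm4-high cells, 268 of 9172 tested genes (2.92%) were at least 2-fold higher and 258 (2.81%) at least 2-fold lower in Msmb-high cells. Against Krt4/Psca-high cells, 346 (3.73%) were higher and 526 (5.67%) lower of 9278, and against Krt6a/Clu-high cells 513 (5.49%) and 692 (7.4%) of 9348. In all 3 comparisons, which share the Msmb-high cells, 117 genes were higher and 59 lower. These were counted over the 9317 genes tested against the remaining gated cells, less the rule genes. Ranked by the smallest of the 3 differences, the leading genes other than the rule genes were Sbp, Spink1, H2-Q10, Sbpl and Smgc. Sbpl was detected in 14.6% of members, and 5 cells held 63.1% of its UMIs in members. As given above, a few cells also held a large part of the Sbp and Spink1 UMIs. H2-Q10 stood at 1901 CPM in Msmb-high cells and at 32.9, 89.9 and 10.7 CPM in the Tgm4-high, Krt4/Psca-high and Krt6a/Clu-high cells. Abo stood at 391 CPM in Msmb-high cells and at most at 74.9 CPM in the other groups, in the Krt4/Psca-high cells. Pbsn was not particular to Msmb-high cells, since it stood at 10451 CPM in them and at 6626 CPM in Tgm4-high cells, beside 104 and 60.0 CPM in the other 2 groups. hARtg, thinned to 3000 UMIs, was found in 9.62% of Tgm4-high, 40.0% of Krt4/Psca-high and 7.14% of Krt6a/Clu-high cells, so the 28.4% of Msmb-high cells lay between them.

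Set 2 held hardly any such cells. Of its 7701 gated cells, 7 passed the score limit of set 1 (0.0909%, Clopper-Pearson interval 0.0366 to 0.187%). Cell by cell, one of them scored 4.14, with 887 UMIs of Msmb, 346 of Pbsn and 0 of Spink1 and hARtg. It held 3 UMIs of mGFP. Another held 1657 UMIs of Msmb, 826 of Pbsn, 0 of Spink1 and hARtg and 237 of mGFP, so high Pbsn stood beside high mGFP in it. A pair held 696 and 2093 UMIs of Spink1 with 0 of Pbsn, 7 and 28 of hARtg and 18 and 3 of mGFP. Of Msmb this pair held 10 and 729 UMIs, and of Wfdc3 109 and 148. The first of the pair was thus low in Msmb and owed its score mainly to Wfdc3. The other 3 held 424 to 924 UMIs of Msmb, at most 3 of Spink1 and at most 2 of Pbsn, with 10 to 36 of hARtg and 34 to 192 of mGFP. High Pbsn and high Spink1 were therefore not found together in any of the 7. Over the 7 cells, Defb50 stood at 34852 CPM and H2-Q10 at 655 CPM, beside 1982 and 2.94 CPM in all gated cells of set 2, in which hARtg was found in 90.8% after thinning. The H2-Q10 UMIs lay unevenly over the 7 cells, with 50 in the highest, 22 in the next and 0 in the lowest. The difference between sets cannot be told apart from one between libraries.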

How the data were processed

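Prostate cells of 2 samples, 1 labelled PIN and 1 labelled PCa, each with 1 library, were examined from the table of the series. The authors counted UMIs with Cell Ranger (version 3.1.0 per the submitters' notes) against mm10 with hARtg and mGFP added, and filtered out empty droplets, multiplets and cells of high mitochondrial content. In each cell the authors divided a gene's UMIs by the total, multiplied by 10000, added 1 and took the natural log, and these values were deposited. Dividing by the value of 1 UMI gave whole numbers for 100% of the values above 0 (tolerance 0.01), and these UMIs were used. The table held 19320 features, and 0 columns of no listed sample. The labels and column names do not tie the barcode endings to PIN or PCa, so the endings were used as sets 1 and 2 and the tissues were not compared. The cell number and mean UMIs that the study gives for PIN match those of set 1, and this match was not used, since groups were taken from the labels alone.

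UMIs were summed over cells and given as CPM with exact Poisson intervals, shares of cells with Clopper-Pearson intervals and ratios with conditional binomial intervals (scipy 1.17.1, 95%). With 1 library and members chosen on these values, no p-value was computed. The rule was at least 5 CPM on either side and at least 2-fold on log2((CPM + 10)/(CPM + 10)). A sum of 0 took a floor of 3 UMIs in a ratio. Doublets were scored with Scrublet in scanpy 1.11.5. Its automatic limit called 0 cells, a limit of 0.25 marked 155 cells of set 1, and these were kept and left out in an alternative. Gated cells of set 1 were clustered with Leiden (resolution 0.5). The step that calls genes was tested on simulated sums with counting error only. They held no spread between cells and no choice of members by value, so the test does not cover those limits. Genes named are the rule genes, Abo, hARtg, mGFP, Pbsn, the 12 highest and 12 lowest, in each list up to 5 with the largest ratio and those against the list's direction, and others chosen after their values were seen. The members and gene lists were chosen with earlier results of these data known. Promoters and gene positions came from RefSeq (GRCm38.p6). Some genes that this rule names are not reported here.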

Additional observations from a re-analysis of the deposited data

How the results depend on the processing

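No paired analysis was possible because PIN and PCa had only 1 library each. Of 1843 alternative values of the 123 named genes past 2-fold, 1837 kept their sign and 1801 stayed past 2-fold, and 9 of 425 list medians changed sign. The exceptions in sign were Pbsn (-0.45), H2-Aa (-0.43) and H2-Ab1 (-0.54) with members of cluster 4 alone, Spink5 (-2.12) and Apoc1 (-0.47) with members of cluster 2 alone, and Hbb-bs (-0.29) when Wfdc3 was left out of the score. The cause of these exceptions was not tested. The named genes include score genes, which chose the members, and genes named for their large ratios. That choice favours a kept sign, so these counts do not measure the stability of genes in general. Of all 2851 alternative values, 1534 were classed as the same, 1311 as moved and 6 as reversed. A pseudocount of 1 CPM gave 571 higher and 1009 lower genes in place of 232 and 426. Members of cluster 4 alone gave 687 lower genes, and cells with 0 mGFP UMIs on both sides (147 and 1357 cells) gave 689. The other alternatives gave 222 to 333 higher and 320 to 516 lower genes. Settings on clusters, on mGFP and on shared barcodes were chosen after seeing the data. Thinning to 10000 UMIs gave hARtg in 42.1% of members and 28.4% of the remaining gated cells. With every cell weighing the same, Msmb was 40238 and 971 CPM. The top 14% of set 2 was 1078 cells, with a lowest score of 0.285. At Leiden resolution 1.0, 62.5% of members shared a cluster. A score without Msmb kept 387 of the 437 members, and a score without Pcp4 kept 431. The ratio of Spink1 was 2.26 with the top 10%. One library, with no replicate, limits all values to these cells.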
